A study of Mus musculus with 6 samples.

Results

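The genes described here copy DNA in S phase or divide the cell in mitosis. They were 43 named genes, chosen by symbol from a list of 23 DNA replication genes and 20 mitosis genes in which cyclins and kinases of the G1 phase had no place. They were carried by 93 of the 45281 probes of an Illumina mouse bead array (51 probes for replication and 42 for mitosis) and made up 43 of its 19057 named genes. RNA came from homogenised primary calvaria (the flat bones that roof the skull) of FVB/N pups on postnatal day 3. Both groups shared strain, age and tissue: 3 wild-type samples (WT) and 3 gain-of-function samples (TG), whose genotype the labels call miR34c overexpression, miR-34c being a microRNA. The labels number them as biological replicates. They do not give the sex, the promoter that drove miR-34c, or whether a sample was 1 pup or a pool, so p-values measure only the spread between these samples. No probe named for miR-34c was found on the array, so its overexpression could not be checked here.

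DNA replication begins when the MCM helicase, loaded at origins with the help of Cdc6, is switched on by Cdc45 and the GINS complex. Primase then lays primers, the RFC loader places the PCNA clamp, and Fen1 and Lig1 finish and join the lagging strand. Mitosis is driven by Cdk1 with A- and B-type cyclins and by the Aurora and Polo-like kinases, and it ends when Cdc20 and the anaphase-promoting complex destroy the cyclins. In calvaria these transcripts mark dividing cells of any type, among them osteoblast progenitors, and the miR-34 family is known as a p53-induced set of microRNAs that can slow the cell cycle. In RNA of whole tissue, fewer dividing cells and less RNA per dividing cell cannot be told apart.

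Promoters are shown first because they hold the best-known sequence elements of both gene groups. Replication genes are classical targets of E2F factors, while mitosis genes carry CCAAT boxes bound by NF-Y and the CHR, an element through which DREAM and MMB complexes time transcription to late cell cycle. RefSeq promoter windows (GRCm38.p6, 250 bases before to 50 after each start) were matched by symbol for 20 of 23 replication genes, in 25 windows, and 16 of 20 mitosis genes, in 17 windows, of which the 2 windows of Prc1 overlap. Mcm4, Gins1, Gins2, Ccna2, Aurkb, Tpx2 and Foxm1 were not matched. The windows were searched on both strands for the E2F letters TTTCCCGC, TTTGGCGC, TTTCGCGC and TTTGCCGC, for CCAAT, and for TTTGAA as the CHR; the E2F forms can overlap one another across strands. E2F letters stood in 9 of 25 replication windows (36%), in 1 of 17 mitosis windows (5.88%) and in 744 of all 32851 windows (2.26%). The CHR letters stood in 14 of 17 mitosis windows (82.4%) and in 3 of 25 replication windows (12%), beside 17.9% of all windows. In windows of the genes tested on the array, whose median GC content was 60.7%, the CHR share was 11.8%, close to that of replication windows, and the E2F share 3.75%. CCAAT was common to both groups, with 64% of replication and 82.4% of mitosis windows against 37.4% of all windows. Every mitosis window with the CHR letters also held CCAAT (14 of 17), a pair found in 6.95% of all windows. The median GC content was 57.3% in replication windows, 59.0% in mitosis windows and 52.7% in all windows. A match is a description of the letters and not of a bound site.

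The 160 bases just before the start are given 5′ to 3′ on the gene's strand for 2 helicase subunits and 4 mitosis genes, since these show the contrast most directly. Capitals mark every E2F, CCAAT and CHR match, on either strand. Mcm6 lies at chr1:128359706-128359865 on the minus strand and holds 3 E2F matches, a pair of which overlap, and 2 CCAAT matches. Mcm5 lies at chr8:75109349-75109508 on the plus strand and holds 2 overlapping E2F matches and 2 CCAAT matches. Cdk1, at chr10:69352913-69353072 on the minus strand, is the mitosis gene with E2F letters, and holds 1 E2F, 2 CCAAT and 2 CHR matches. Cdc20, at chr4:118437344-118437503 on the minus strand, holds 2 CCAAT and 1 CHR. Kif11, at chr19:37376222-37376381 on the plus strand, holds 1 of each. Top2a, at chr11:99024190-99024349 on the minus strand, holds 4 CCAAT and 1 CHR.
Mcm6: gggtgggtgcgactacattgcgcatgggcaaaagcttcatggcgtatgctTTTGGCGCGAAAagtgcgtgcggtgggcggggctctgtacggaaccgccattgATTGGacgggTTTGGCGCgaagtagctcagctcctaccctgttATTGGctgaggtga
Mcm5: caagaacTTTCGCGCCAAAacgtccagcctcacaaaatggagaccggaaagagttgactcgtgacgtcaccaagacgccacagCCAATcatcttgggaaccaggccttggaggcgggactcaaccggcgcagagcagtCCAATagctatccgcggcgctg
Cdk1: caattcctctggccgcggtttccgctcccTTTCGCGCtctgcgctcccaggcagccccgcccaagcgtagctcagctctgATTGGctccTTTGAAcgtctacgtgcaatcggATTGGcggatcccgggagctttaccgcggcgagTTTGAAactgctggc
Cdc20: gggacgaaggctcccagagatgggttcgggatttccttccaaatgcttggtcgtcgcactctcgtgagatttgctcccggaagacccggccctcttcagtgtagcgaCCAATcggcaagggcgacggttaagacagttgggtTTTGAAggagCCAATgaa
Kif11: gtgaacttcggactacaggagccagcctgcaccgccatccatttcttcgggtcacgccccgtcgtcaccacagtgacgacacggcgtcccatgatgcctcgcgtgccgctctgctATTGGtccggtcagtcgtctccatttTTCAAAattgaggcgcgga
Top2a: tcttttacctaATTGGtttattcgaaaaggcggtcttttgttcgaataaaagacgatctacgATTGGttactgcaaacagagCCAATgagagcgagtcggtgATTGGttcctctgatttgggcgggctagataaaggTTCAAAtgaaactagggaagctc

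Array quality was even, while arrays of both groups differed from one another in marker transcripts. Median probe intensity was 125.1 to 132.6, 19680 to 21412 probes and 62 to 75 of the 93 member probes were detected on each array (detection p under 0.05), and arrays correlated at 0.980 to 0.989. Osteoblast markers, which fit the labelled tissue, were detected well enough to test for 10 of 10 listed genes, with a summed normalised intensity of 111508 to 139886 in WT and 109838 to 126733 in TG. Skeletal muscle genes (11 of 12 tested) summed to 74249 to 168353 in WT and to 42435 to 136585 in TG. All 11 were highest on WT replicate 2 and lowest on TG replicate 1. Neutrophil and myeloid progenitor genes (10 of 14 tested) summed to 5936 to 8434 in WT and 2063 to 7107 in TG, again with 10 of 10 lowest on TG replicate 1. Xist, the RNA that silences one X chromosome in females, had log2 intensities of 4.49, 5.05 and 5.12 in WT and 4.69, 9.17 and 9.34 in TG. The Y-linked Kdm5d ran oppositely, at 7.36, 7.01 and 6.99 in WT and 7.17, 4.69 and 4.43 in TG. Uty, also Y-linked, stood at 6.07, 5.73 and 5.86 in WT and 5.36, 5.14 and 5.14 in TG. TG replicates 2 and 3 thus stood apart from the other 4 arrays in Xist and Kdm5d, while in Uty TG replicate 1 was below every WT array and nearer to the other TG arrays. TG replicate 1 stood apart in muscle and myeloid transcripts.

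The first comparison asked whether replication genes differed between TG and WT calvaria, and none passed the test. Intensities were corrected for background, quantile normalised and set on a log2 scale, and a gene was represented by its brightest tested probe; a probe was tested if detected on at least 3 of 6 arrays. Of 23 replication genes 22 were tested, and 20 had a representing probe detected on all 6 arrays. Pola1, the catalytic subunit of DNA polymerase alpha, was not tested, with its one probe detected on 1 WT array. With limma and Benjamini-Hochberg adjustment over all 20632 tested probes, 0 of 22 genes passed an adjusted p of 0.05, against 0% of 11204 genes on the whole array, and the adjusted p was 0.9996 for each. At an unadjusted limma p under 0.05 the count was 0 of 22, beside 284 genes (2.53%) of the array, 1.36% higher and 1.18% lower in TG. The log2 fold changes of TG over WT ranged from -0.19 to 0.27 with a median of -0.01, and 15 were below 0 and 7 above. Over all genes the median was -0.00 and 50.5% were below 0. All 22 intervals (95%) lay within a 2-fold change in either direction, and 19 lay within 1.5-fold. Over the array this held for 10764 and 8593 of 11204 genes. Changes beyond 2-fold lie outside all 22 intervals, and changes beyond 1.5-fold outside 19. The median half-width of the intervals was 0.33 on the log2 scale. With 3 arrays a group, changes inside the intervals may have gone undetected, and no gene of the array passed the adjusted test. Rfc3 and Prim1 lay near background, where log2 differences are compressed, so their intervals do not exclude a larger change. The tilt toward lower values depended on single arrays: 4 of 22 were below 0 without TG replicate 3 and 11 without WT replicate 1, and the median was -0.09 without WT replicate 2. With arrays scaled by their medians instead, 11 of 22 were below 0, but that scaling also moved the median of all genes to 0.03 and the share of all genes below 0 to 42.0%.

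**Figure D1:**
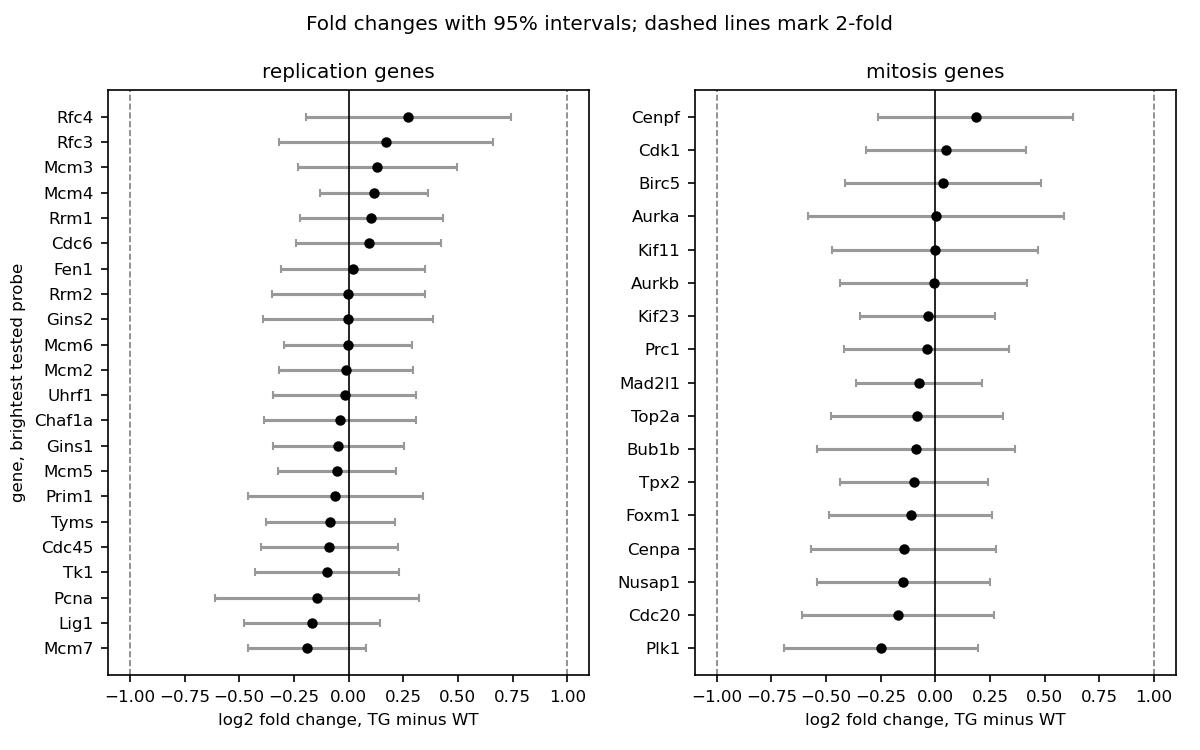
Log2 fold change of TG over WT for each tested replication (22) and mitosis (17) gene, with 95% limma confidence intervals; dashed lines mark a 2-fold change in either direction. Every interval spans 0 and stays within the dashed lines, with estimates from -0.25 (Plk1) to 0.27 (Rfc4).

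The 6 subunits of the MCM2-7 helicase, the motor that unwinds DNA ahead of the fork, had a median log2 fold change of -0.01, and all 6 intervals lay within 1.5-fold. Mcm4 measured 11.36, 11.40 and 11.33 in WT and 11.47, 11.53 and 11.44 in TG on the log2 scale. All TG arrays were above all WT arrays, a separation seen upward in 3.35% of array genes, yet the difference was 0.12 ± 0.11 (SE; WT mean 11.37, TG mean 11.48; limma adjusted p = 0.9996) and 2 further Mcm4 probes lay near background (mean log2 intensities of 5.18 and 5.05), where differences are compressed, and gave -0.01 each. Mcm7 was the reverse, at 8.40, 8.23 and 8.16 in WT and 8.04, 8.09 and 8.09 in TG. Every TG array was below every WT array, as in 3.48% of array genes, with a difference of -0.19 ± 0.12 (SE; WT mean 8.26, TG mean 8.07; limma adjusted p = 0.9996), but a second Mcm7 probe differed by 0.14. These were the 2 replication genes of 22 whose groups did not overlap (6.83% of array genes did not).

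The other 4 helicase subunits overlapped between groups. Mcm2 stood at 8.84, 8.63 and 8.59 in WT and 8.69, 8.81 and 8.52 in TG, a difference of -0.01 ± 0.13 (SE; WT mean 8.69, TG mean 8.67). Mcm5 stood at 10.77, 10.62 and 10.67 in WT and 10.71, 10.67 and 10.52 in TG. Its mean of 10.69 ± 0.08 (SD, n = 3) in WT and 10.63 ± 0.10 (SD, n = 3) in TG differed by less than either spread. Mcm6 measured 10.18, 10.43 and 10.26 in WT and 10.24, 10.42 and 10.20 in TG. Both groups were lowest near the same value and highest near the same value, and the difference was -0.00 ± 0.13 (SE; WT mean 10.29, TG mean 10.29), with 0.03, 0.00 and 0.16 for 3 further probes, the last 2 near background. Mcm3 measured 7.42, 7.60 and 7.38 in WT and 7.83, 7.66 and 7.31 in TG. TG held both its highest and its lowest array, with a difference of 0.13 ± 0.16 (SE; WT mean 7.47, TG mean 7.60).

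**Figure D2:**
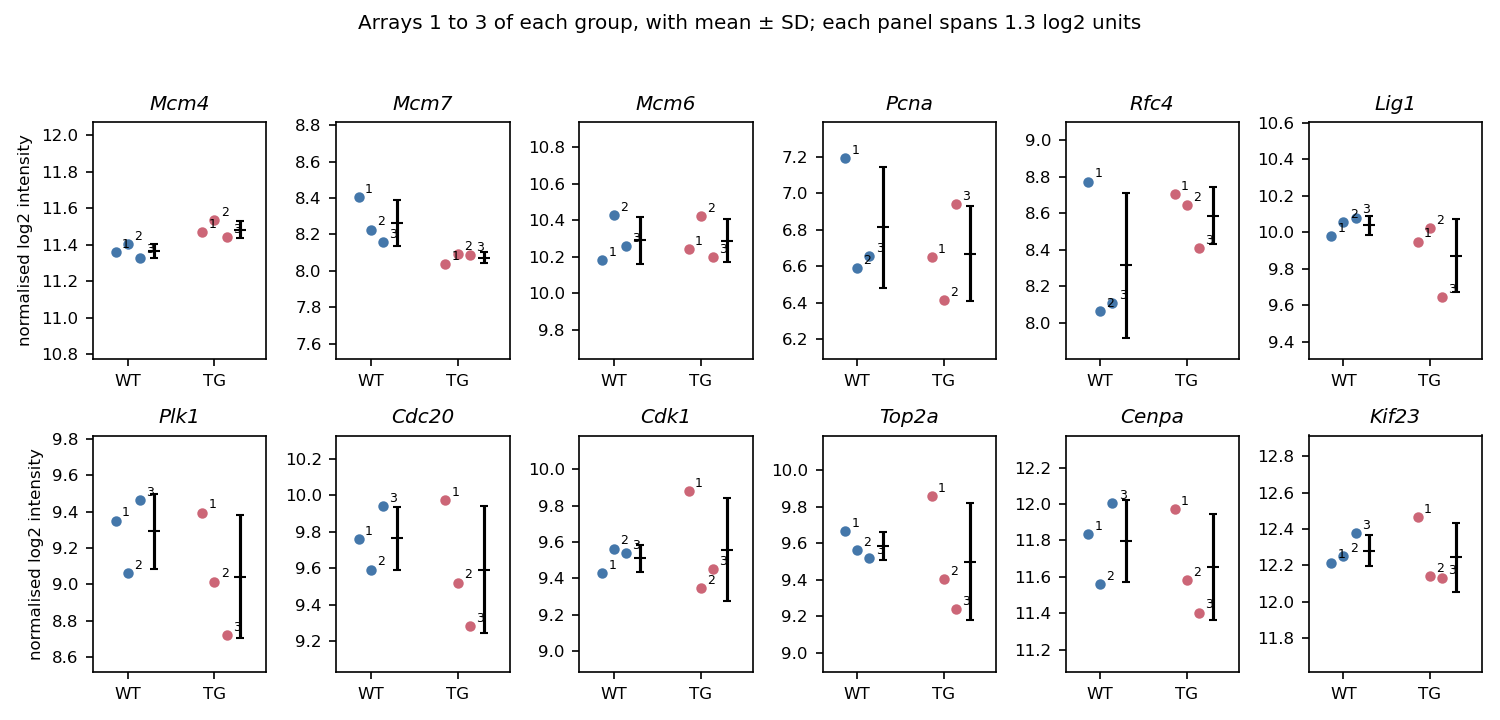
Log2 normalised intensity on each array (WT and TG, 3 numbered points each, with the group mean ± SD) for 6 replication and 6 mitosis genes; every panel spans the same number of log2 units. TG lies above WT for Mcm4 and below WT for Mcm7, and the groups overlap in the other 10 panels.

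Among genes that load origins and start the helicase, Cdc6, the loader, differed by 0.09, Cdc45 by -0.09, and the GINS subunits Gins1 and Gins2 by -0.05 and -0.00 on the log2 scale. Further Gins2 probes gave -0.01 and 0.09. At the fork, Pcna, the sliding clamp that tethers polymerases, measured 7.20, 6.59 and 6.66 in WT and 6.65, 6.42 and 6.94 in TG. WT replicate 1 alone lay above the TG range, and the difference was -0.14 ± 0.20 (SE; WT mean 6.81, TG mean 6.67). Rfc4, a subunit of the clamp loader, had the highest fold change of the group. It measured 8.77, 8.07 and 8.11 in WT and 8.71, 8.64 and 8.41 in TG. The 3 TG arrays stood between WT replicate 1 and the other 2 WT arrays, and the difference was 0.27 ± 0.20 (SE; WT mean 8.32, TG mean 8.59; limma adjusted p = 0.9996). A second Rfc4 probe near background (mean log2 intensity of 5.48) gave 0.03. Rfc3, another loader subunit, was dim and was detected on 2 WT and 3 TG arrays. Its values were 5.48, 5.47 and 4.74 in WT and 5.48, 5.23 and 5.50 in TG. A single low WT array set its difference of 0.17 ± 0.21 (SE; WT mean 5.23, TG mean 5.41).

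Prim1, the catalytic subunit of primase, was also dim, at 4.99, 4.83 and 5.19 in WT and 5.23, 4.94 and 4.66 in TG, and was detected on 2 arrays of each group. Its groups overlapped, with a difference of -0.06 ± 0.17 (SE; WT mean 5.00, TG mean 4.94). Lig1, the ligase that joins Okazaki fragments, measured 9.98, 10.06 and 10.08 in WT and 9.95, 10.02 and 9.64 in TG. TG replicate 3 alone was clearly low, the difference was -0.17 ± 0.13 (SE; WT mean 10.04, TG mean 9.87; limma adjusted p = 0.9996), and 3 further, dimmer Lig1 probes gave -0.07, 0.12 and 0.10. Fen1, the flap nuclease, differed by 0.02. Rrm2, the regulated subunit of ribonucleotide reductase, which makes deoxyribonucleotides, measured 8.18, 7.72 and 7.82 in WT and 7.99, 7.96 and 7.77 in TG. All 3 TG values fell within the WT range, with a difference of -0.00 ± 0.15 (SE; WT mean 7.91, TG mean 7.91). Further, dimmer Rrm2 probes gave -0.17 and -0.06. The partner subunit Rrm1 differed by 0.10 on its brightest probe and by -0.29 on another. Tk1 and Tyms, which supply thymidine nucleotides, differed by -0.10 and -0.08. A second, dimmer Tk1 probe, detected on all 6 arrays, gave -0.32. A second Tyms probe gave 0.02. Another was detected on no WT array and on 3 TG arrays. It entered the test only through its TG arrays, so no fold change is drawn from it (limma adjusted p = 0.9996).

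Uhrf1 and Chaf1a act on chromatin behind the fork. Uhrf1, which recruits the maintenance DNA methyltransferase, measured 11.45, 11.09 and 11.29 in WT and 11.35, 11.34 and 11.09 in TG. The ranges nearly coincided, and the difference was -0.02 ± 0.14 (SE; WT mean 11.28, TG mean 11.26). Chaf1a, the large subunit of the histone chaperone CAF-1, differed by -0.04. Of 10 replication genes with several tested probes, 7 had probes of opposite sign, though for Mcm4 and Lig1 the probes of opposite sign were much dimmer ones.

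Mitosis genes were compared in the same way, and again 0 of 17 tested genes passed an adjusted limma p of 0.05, beside 0% of array genes. At an unadjusted limma p under 0.05 the count was 0 of 17 as well, beside 2.53% of array genes. The groups overlapped in all 17 genes, while 6.83% of array genes had no overlap. Ccna2 and Ccnb2, the A- and B-type cyclins of this list, each had a single probe, detected on no array, and Ube2c, the ubiquitin-conjugating enzyme of the anaphase-promoting complex, on 2 TG arrays, so these 3 were not tested. Of the 17 log2 fold changes 13 were below 0 and 4 above, from -0.25 to 0.18, with a median of -0.07. All 17 intervals lay within 2-fold and 13 within 1.5-fold, beside 10764 and 8593 of 11204 array genes. Cenpf lay near background, so its interval does not exclude a larger change. The tilt toward lower values also depended on single arrays. The count below 0 was 6 of 17 without TG replicate 3, 9 without TG replicate 2, 9 without WT replicate 1 and 10 without WT replicate 3, but 16 without TG replicate 1 (median -0.20) and 16 without WT replicate 2.

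Plk1, the Polo-like kinase that acts from mitotic entry to cytokinesis, had the lowest fold change. It measured 9.35, 9.06 and 9.46 in WT and 9.39, 9.02 and 8.72 in TG. TG replicate 3 was the lowest array and TG replicate 1 lay within the WT range, with a difference of -0.25 ± 0.19 (SE; WT mean 9.29, TG mean 9.04; limma adjusted p = 0.9996). Cdk1, the kinase that triggers mitosis, measured 9.43, 9.56 and 9.54 in WT and 9.88, 9.35 and 9.45 in TG. WT arrays lay close together and TG arrays on both sides of them, and the difference was 0.05 ± 0.16 (SE; WT mean 9.51, TG mean 9.56). The Aurora kinases Aurka, which matures spindle poles, and Aurkb, of the chromosomal passenger complex, differed by 0.00 and -0.01. Aurkb stood at 8.53, 8.40 and 8.42 in WT and 8.86, 8.29 and 8.17 in TG. The TG arrays again enclosed all WT arrays. Birc5, or survivin, a partner of Aurkb, differed by 0.03, and by 0.08 and -0.01 on further probes. Foxm1, the transcription factor that works with MMB on late genes, measured 7.91, 7.60 and 7.46 in WT and 7.66, 7.66 and 7.32 in TG, a difference of -0.11 ± 0.16 (SE; WT mean 7.66, TG mean 7.55). Its TG values began just under the WT range and ended inside it, and a second probe gave 0.02.

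Cdc20, the activator of the anaphase-promoting complex, measured 9.76, 9.59 and 9.94 in WT and 9.97, 9.52 and 9.28 in TG. TG replicate 1 was its highest array and TG replicate 3 its lowest, and the difference was -0.17 ± 0.19 (SE; WT mean 9.76, TG mean 9.59; limma adjusted p = 0.9996). Its 3 further probes ran the same way, at -0.23, -0.22 and -0.15. Bub1b and Mad2l1, which hold Cdc20 back until chromosomes are attached, differed by -0.09 and -0.07, and a second Mad2l1 probe by 0.05.

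Top2a, the topoisomerase that untangles sister chromatids, measured 9.67, 9.57 and 9.52 in WT and 9.86, 9.40 and 9.24 in TG. The TG arrays lay on both sides of a narrow WT range, with an SD of 0.08 in WT and 0.32 in TG (n = 3 each) and a difference of -0.08 ± 0.17 (SE; WT mean 9.58, TG mean 9.50). Cenpa, the histone variant that marks centromeres, measured 11.83, 11.56 and 12.00 in WT and 11.97, 11.58 and 11.40 in TG. One TG array fell below the WT range, with a difference of -0.15 ± 0.18 (SE; WT mean 11.80, TG mean 11.65). A second Cenpa probe near background (mean log2 intensity of 5.17), where differences are compressed, gave 0.10. Cenpf, a kinetochore protein, was dim and was detected on 2 WT and 3 TG arrays. Its values were 5.34, 4.65 and 5.20 in WT and 5.43, 5.13 and 5.18 in TG. A single low WT array set its difference of 0.18 ± 0.19 (SE; WT mean 5.06, TG mean 5.25).

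Kif11, the motor that pushes spindle poles apart, measured 7.05, 7.28 and 7.63 in WT and 7.64, 7.30 and 7.01 in TG. The 2 groups covered the same range, and the difference was -0.00 ± 0.20 (SE; WT mean 7.32, TG mean 7.32). Kif23, a motor of the central spindle, measured 12.22, 12.25 and 12.38 in WT and 12.46, 12.14 and 12.13 in TG. Prc1, which bundles the microtubules between separating chromosomes, measured 11.29, 11.12 and 11.33 in WT and 11.51, 11.15 and 10.95 in TG. In both, TG replicate 1 was the highest of all 6 arrays and TG replicate 3 the lowest, and the differences were -0.04 ± 0.13 for Kif23 (12.28 against 12.24 on average) and -0.04 ± 0.16 for Prc1 (11.24 against 11.20). Nusap1, a spindle protein, measured 10.20, 10.09 and 10.11 in WT and 10.31, 9.99 and 9.66 in TG. Its TG arrays also enclosed the WT arrays, with a difference of -0.15 ± 0.17 (SE; WT mean 10.13, TG mean 9.99) and 0.14 for a second probe near background. Tpx2, which activates Aurka at the spindle, differed by -0.10.

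**Figure D3:**
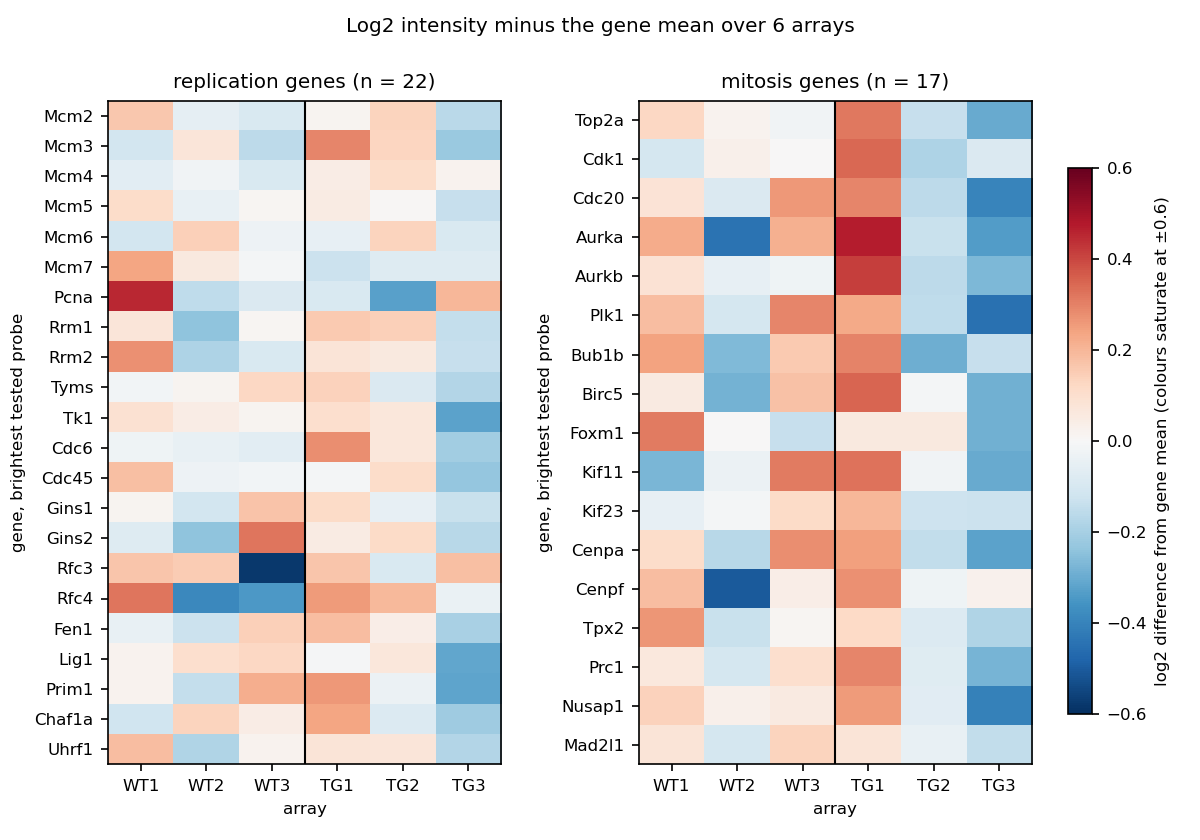
Log2 normalised intensity of each tested replication and mitosis gene on each array, minus the gene's own mean over the 6 arrays (red above, blue below). Mitosis genes are above their mean on TG replicate 1 in 17 of 17 cases and below it on TG replicate 3 in all but 1.

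Samples within a group differed more than the groups did, and mitosis genes moved together in this. Their mean log2 level, each gene set to its own mean, was 0.10, -0.13 and 0.12 in WT replicates 1 to 3 and 0.27, -0.10 and -0.25 in TG replicates 1 to 3. The group means differed by -0.06, less than the SD of 0.14 in WT and 0.27 in TG. TG replicate 1 was the highest array for 12 of 17 mitosis genes (70.6%), beside 20.2% of all tested genes. TG replicate 3 was the lowest for 13 of 17, beside 1835 of 11204 tested genes. The level on TG replicate 1 exceeded that on TG replicate 3 for 17 of 17 genes and for 30 of 30 tested probes, by a median of 0.57 (0.23 to 0.80) on the log2 scale, beside a median of 0.02 over all genes, of which 52.6% were higher on TG replicate 1. This order of the 2 arrays was the same for all 17 genes in each of 5 ways of scaling the values. It compares 2 samples and has no replicate.

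Replication genes were lowest on TG replicate 3 as well, but stood about as high on WT replicate 1 as on TG replicate 1. Their mean level was 0.08, -0.06 and -0.02 in WT and 0.10, 0.03 and -0.14 in TG, a difference of -0.00 between groups with an SD of 0.07 and 0.12. TG replicate 3 was the lowest array for 12 of 22 genes, whereas the highest was TG replicate 1 for 8 and WT replicate 1 for 8. TG replicate 1 exceeded TG replicate 3 for 19 of 22 genes (52.6% of all genes), by a median of 0.25. The median range over the 6 arrays was 0.42 for replication genes, 0.62 for mitosis genes and 0.46 for all tested genes. The difference between both gene groups in this range was not tested.

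**Figure D4:**
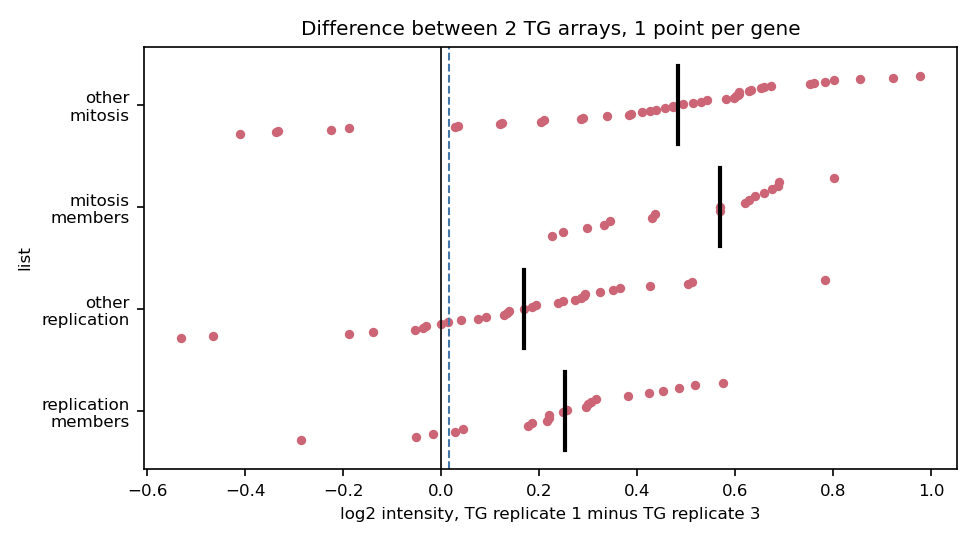
Level on TG replicate 1 minus that on TG replicate 3 (log2), one point per gene, for replication and mitosis genes and the further genes of each pathway; the black bar is the list median and the blue dashed line the median of all tested genes (0.02). All 17 mitosis genes lie above 0, with a median of 0.57.

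Further genes of both pathways, from lists of their textbook members, were tested in the same fit. Of 38 other replication genes with a named probe 31 were tested. In limma 0 passed by adjusted p and 0 at an unadjusted p under 0.05, beside 0% and 2.53% of array genes. Their median log2 fold change was -0.05, with 22 below 0 and 9 above. Rpa3, a subunit of the single-strand binding protein RPA, measured 9.27, 9.14 and 9.34 in WT and 9.37, 9.53 and 9.40 in TG. All TG arrays were above WT, by 0.18 ± 0.12 (SE; limma adjusted p = 0.9996). Orc6, of the origin recognition complex, differed by 0.15 with no overlap, and Timeless and Mcm10, which work at the moving fork, by -0.20 and -0.19. Groups did not overlap upward in 2 of the 31 genes and downward in 1, beside 3.35% and 3.48% of array genes. TG replicate 1 exceeded TG replicate 3 for 23 of 31, by a median of 0.17.

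Of 54 other mitosis genes with a named probe 44 were tested, with a median of -0.11, 34 below 0 and 10 above. None passed by adjusted p, and 2 had an unadjusted limma p under 0.05, both higher in TG, beside 2.53% of array genes. Groups did not overlap upward in 2 of the 44 genes and downward in 2, beside 3.35% and 3.48% of array genes. Smc4, a condensin subunit that compacts chromosomes, measured 5.70, 5.69 and 5.78 in WT and 6.00, 6.15 and 6.23 in TG. It was higher on every TG array, by 0.40 ± 0.12 (SE; limma adjusted p = 0.9996), and 2 further probes gave 0.15 and 0.20. These Smc4 probes were dim (mean log2 intensities of 5.93, 5.66 and 5.56), toward background, where log2 differences are compressed. The last was detected on 2 WT arrays. Anapc1, the scaffold of the anaphase-promoting complex, was the other gene with an unadjusted limma p under 0.05. It was detected on no WT array and on 3 TG arrays, so it entered the test only through TG arrays. The counts of higher genes include this selection. A second Anapc1 probe was detected on 1 WT array and on no TG array. Among the lowest, Ckap2 and Aspm, both of the spindle, differed by -0.29 and -0.25. TG replicate 1 exceeded TG replicate 3 for 39 of 44 genes, by a median of 0.48, so the array pattern of the 17 mitosis genes was also present in mitosis genes outside the list.

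**Figure D5:**
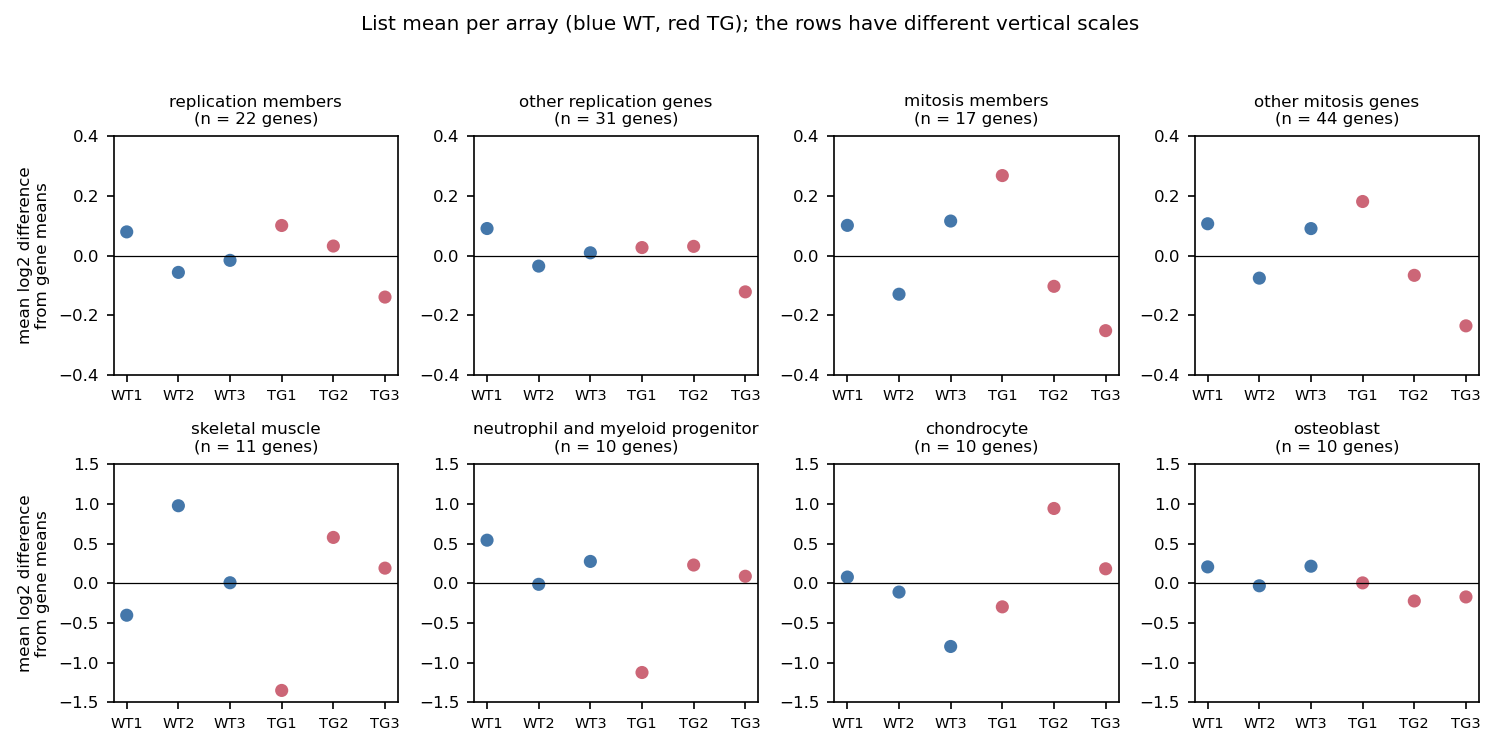
Mean log2 level of each gene list on each array, every gene set to its own mean; the upper and lower rows have different scales. The mitosis panel is highest on TG replicate 1 (0.27) and lowest on TG replicate 3 (-0.25), while skeletal muscle genes are lowest on TG replicate 1 (-1.35).

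Marker genes of other cell types also differed between arrays, on the same centred log2 scale and in the order replicates 1 to 3. Skeletal muscle genes stood at -0.40, 0.98 and 0.01 in WT and at -1.35, 0.58 and 0.19 in TG. They were lowest on TG replicate 1, where mitosis genes were highest, and highest on WT replicate 2, where mitosis genes were lowest among WT arrays. Neutrophil and myeloid progenitor genes stood at 0.54, -0.01 and 0.28 in WT and at -1.12, 0.23 and 0.09 in TG. They too were lowest on TG replicate 1, but in WT they were lowest on replicate 2, where mitosis genes were also lowest. Osteoblast genes stood at 0.21, -0.03 and 0.21 in WT and at 0.00, -0.22 and -0.17 in TG. They were higher on WT replicates 1 and 3 than on WT replicate 2, and highest within TG on replicate 1, as mitosis genes were. Chondrocyte genes, at 0.08, -0.11 and -0.80 in WT and -0.30, 0.94 and 0.18 in TG, showed no such order. A single gene, Col10a1, weighed heavily on these means, from 4.72 on WT replicate 1 to 11.35 on TG replicate 2. On WT replicate 1, 9 of 10 chondrocyte genes were above their own mean. Erythroid genes (4 tested) had their highest mean on WT replicate 2 at 0.67, but only 2 of the 4 were highest there. Slc4a1 was highest on WT replicate 1 and Rhag on WT replicate 3. Lymphoid genes (3 tested) were highest on WT replicate 3 at 0.54. The part of these cell types in the mitosis pattern was not tested. Within TG, the array with low Xist and high Kdm5d, replicate 1, had the highest mitosis level. Over all 6 arrays the mitosis level with low Xist was 0.10, -0.13 and 0.12 in WT and 0.27 in TG replicate 1. With high Xist it was -0.10 and -0.25 in TG replicates 2 and 3. Whether the mitosis level follows Xist and Kdm5d was not tested. With TG replicate 1 set against the 3 WT arrays alone, a comparison chosen after the values were seen, 17 of 17 mitosis genes were above 0 with a median of 0.25, and 17 of 22 replication genes with a median of 0.08, and 0 probes passed the limma test. This leaves 1 TG array, whose spread is assumed to equal that of WT. Sex, sample and tissue composition cannot be told apart within the TG group.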

How the data were processed

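Total RNA of 6 samples was measured on Illumina bead arrays. The authors deposited a non-normalised table of linear intensity and detection p-value per probe, per the file headers, and a table of normalised log2 values (array medians 7.55); the submitters' processing notes name lumi, and neither its version nor its steps were found in these sources. Symbols came from the platform annotation (34885 of 45281 probes with 1 symbol, 18 with several, 10378 not named here). The control block's headers give another age and replicate numbering than the labels; the probe columns match the labels, and this is unresolved.

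Intensities were corrected with limma 3.58.1 in R 4.3.3 (normexp with offset 16, using 936 of 974 control rows as negative controls, from which the deposited detection p-values could be recomputed to within 0.0139), quantile normalised and log2 transformed. Probes detected (p under 0.05) on at least 3 of 6 arrays were tested, 20632 in all; a gene took its tested probe with the highest mean. TG was compared with WT by lmFit and eBayes, two-sided, with Benjamini-Hochberg adjustment over all tested probes, and the fit was tested on simulated data. With 3 arrays against 3 an exact permutation test cannot go below 0.1, and array number limits the precision. Genes given in full were the 6 MCM subunits, 7 key genes, the 5 smallest p, 3 highest and 2 lowest means of each group, and genes whose arrays did not overlap, with Aurkb added after its values were seen. The 4 smallest p of each further list are named, with array values for Rpa3 and Smc4. Members, lists and rules were chosen with earlier results of these data known. Same-numbered samples deviated from their group means with correlations of 0.26, 0.15 and -0.17, so numbers were not taken to pair samples. Results were recomputed under 17 other settings and 1 chosen after seeing the data.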

Additional observations from a re-analysis of the deposited data

How the results depend on the processing

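No gene of either group passed the adjusted threshold in any of the 18 alternatives. The number of probes past it was 0 in all but one; leaving out replicates in turn gave 0 to 2, and the 2, without TG replicate 1, were Xist and Kdm5d (smallest adjusted p of 0.0028 in limma). Directions of these small changes were not stable: 5 of 22 replication genes and 0 of 17 mitosis genes kept one sign throughout. With a replicate block, 0 probes passed (smallest adjusted p of 0.9995 in limma) and both medians stayed at -0.01 and -0.07. TG replicates 1 and 2 correlated best with the WT array of their own number (0.26 and 0.15). TG replicate 3 correlated best with WT replicate 2 (0.29), not with its own number. When Y-linked signal was added as a covariate, the median log2 fold change was 0.12 for replication and 0.33 for mitosis genes. Then 18 of 22 replication and 17 of 17 mitosis values were above 0. Over all genes this covariate gave a median of 0.02, with 46.3% below 0. Among the genes given in full, those that turned positive were Mcm2 0.0698, Mcm5 0.0674, Rrm2 0.18, Prim1 0.30, Uhrf1 0.15, Top2a 0.37, Cdc20 0.30, Aurkb 0.52, Plk1 0.21, Foxm1 0.10, Kif11 0.33, Kif23 0.21, Cenpa 0.26, Prc1 0.35 and Nusap1 0.28. On the 4 arrays with low Xist (3 WT and TG replicate 1, chosen after seeing the data) the mitosis median was 0.25, beside 0.02 over all genes. The mean differences were 0.10 for replication and 0.24 for mitosis. Mcm2 was 0.0092, Mcm5 0.0218, Rrm2 0.0785, Prim1 0.23, Uhrf1 0.0709, Top2a 0.27, Cdc20 0.21, Aurkb 0.41, Plk1 0.10, Foxm1 2.35e-05, Kif11 0.32, Kif23 0.18, Cenpa 0.18, Prc1 0.27 and Nusap1 0.18. Both rest on 1 TG array with a male pattern. Mcm6 became 0.005 with cyclic loess and 0.0456 as the mean of its probes. Aurkb became 0.0025 on the authors' normalised values. With median scaling, which moved the median of all genes to 0.03, Mcm2 became 0.02, Mcm6 0.0309, Rrm2 0.0332 and Kif11 0.032. The cause of these reversals was not tested.

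Leaving out 1 replicate at a time, the log2 fold change ran from -0.22 to 0.13 for Aurkb, -0.11 to 0.15 for Cdk1, -0.021 to 0.32 for Cenpf, -0.21 to 0.0129 for Foxm1, -0.17 to 0.15 for Kif11, -0.14 to 0.0207 for Kif23, -0.0793 to 0.0686 for Mcm2, -0.0905 to 0.0021 for Mcm5, -0.0703 to 0.0678 for Mcm6, -0.31 to 0.0183 for Nusap1, -0.28 to 0.0465 for Pcna, -0.20 to 0.0888 for Prc1, -0.21 to 0.0822 for Prim1, -0.0739 to 0.30 for Rfc3, -0.093 to 0.14 for Rrm2, -0.26 to 0.0459 for Top2a and -0.11 to 0.0716 for Uhrf1. Of the other genes given in full, those that kept their sign but moved by over 1.5 times ran from 0.15 to 0.50 for Rfc4, -0.42 to -0.0866 for Plk1, -0.36 to -0.0165 for Cdc20, 0.017 to 0.28 for Mcm3, -0.24 to -0.0523 for Lig1, -0.24 to -0.12 for Mcm7 and -0.31 to -0.0217 for Cenpa. Without TG replicate 3 the medians were 0.07 for replication and 0.02 for mitosis genes. Dim probes (Rfc3, Prim1, Cenpf) lay near background, where log2 differences are compressed.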
